A study of Rattus norvegicus with 20 samples.

Results

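The 200 probes described here had the lowest signals after 24 h of diclofenac relative to 6 h at every concentration tested in cultured neonatal rat heart cells. Each was well above background on all 9 arrays from 6 h, and its mean log2 signal was more than 1 lower at 24 h than at 6 h at concentration 1, at 1/5 and at 1/25 alike. A signal here is the log2 of the scanner's processed intensity minus the array's 75th percentile. Of 41012 probes on the array, 29655 met the background requirement and 1648 of these (5.56%) passed the difference. The 1648 were ranked by the difference nearest to zero of the 3, and the 200 lowest were kept. The last members inside the limit, TC556681 and Tyro3, both had -2.05, and the next outside it, BQ210985 and Brms1l, had -2.05 and -2.04. Of the 200 members 93 carry a gene symbol, each a different gene, and the rest carry only a clone, locus or transcript identifier.

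Primary cultures from hearts of newborn rats, labelled as cardiomyocytes, grew for a day before treatment. The untreated group has 2 arrays here, where the series text speaks of 3 per group. Each of the 6 treated groups, exposed for 6 h or 24 h to diclofenac at a reference concentration called 1 or diluted to 1/5 or 1/25, has 3 arrays. No genotype, strain or molar value of the reference concentration is given, nor the time at which untreated cultures were taken, so time in culture and treatment cannot be told apart against them. Whether the replicates are separate cultures is not given, and p-values cover no more than the spread between these arrays, part or all of which may be technical. All 8 cardiomyocyte markers checked (among them Myh6, Tnnt2 and Actc1) were well above background on every array, as were 4 of 6 fibroblast markers. So were 3 of 4 leukocyte markers, and 1 of the 3 smooth muscle and 1 of the 3 erythroid markers on the array. The summed linear level of the cardiomyocyte markers, relative to the array's 75th percentile, was 12.7 to 19 on the untreated and 6 h arrays and 11.2 to 88.1 on the 24 h arrays. That of the fibroblast markers was 12.9 to 17.5 and 10.7 to 82.5, and that of the smooth muscle markers, whose 3 eligible probes had median differences between 24 h and 6 h of -1.40, -0.95 and -1.33, was 3.03 to 4.42 at 6 h and 0.521 to 4.0 at 24 h. The 75th percentile itself was 3165 on the third array of 1/5 for 24 h and 9623 to 21937 on the others. The sums are relative to it, and its part in them was not tested. The part of these cell types in the members' values was not tested.

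Diclofenac belongs to the non-steroidal anti-inflammatory drugs, which block cyclooxygenase enzymes and so lower prostaglandin synthesis. The members have no single known pathway. They include genes of cell adhesion (the integrin Itga5, the focal adhesion protein Tgfb1i1), of the Golgi and secretory route (Glg1, Lman2l), of protein folding and turnover (Hspa8, Hspa9), of translation (Rplp0, Eif4g2) and of signalling (Akt2, Camk2b). The largest set of related members reads sequences of glyceraldehyde-3-phosphate dehydrogenase (GAPDH), an enzyme of glycolysis that is often used as an unchanging reference transcript. In the rat it has many processed copies in the genome, and the array carries probes designed against many of them.

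Probes on GAPDH-like sequences made up 22 of the 200 members (11%), against 85 of the 29655 probes that met the background requirement (0.287%). The set was noticed after the values were seen, and it was not tested. The array has 93 probes whose description in the files names GAPDH, not counting the spermatogenic form. Of the 85 eligible probes 36 (42.4%) were more than 1 lower at 24 h at every concentration, and 35 had a value above 0 at 1 or more concentrations. Their highest difference of the 3 ran from -3.24 to 2.89. Probes for near-identical copies may each take up RNA of Gapdh itself, so which copy gave the signal cannot be told apart.

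The probes were grouped by shared sequence, joining probes that overlap without gaps over 15 or more bases with at most 15% mismatched. This placed 61 of the 93 in 6 groups of 3 or more, and 32 in none. Group 1, with 21 probes, held 13 members. The 3 lowest-ranked members of this group are shown because they share a stretch, in capitals, although they were designed against copies on chromosomes 15, 7 and 2 (build rn3, as in the array files, for all positions here).
XM_224528, chr15:105089008-105089067, minus strand: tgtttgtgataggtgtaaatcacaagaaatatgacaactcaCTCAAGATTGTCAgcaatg
XM_235039, chr7:28373951-28374010, minus strand: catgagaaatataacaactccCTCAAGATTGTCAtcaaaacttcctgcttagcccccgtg
LOC294903, chr2:96223714-96223773, plus strand: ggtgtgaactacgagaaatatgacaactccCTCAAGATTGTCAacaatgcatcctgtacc

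Their differences at concentrations 1, 1/5 and 1/25 were alike. XM_224528 had -3.05, -4.09 and -2.90, XM_235039 had -2.85, -4.32 and -2.81, and LOC294903 had -2.81, -3.68 and -2.73. Group 2, with 18 probes, held no member. It is shown by a probe for Gapdh itself and by the 2 eligible probes nearest to it in position within the group, level with each other, with the 21 bases that the 3 share in capitals.
Gapdh, chr4:161527376-161527545, minus strand: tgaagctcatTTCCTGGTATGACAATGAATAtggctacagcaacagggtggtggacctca
XM_235346, chr7:100987273-100987332, plus strand: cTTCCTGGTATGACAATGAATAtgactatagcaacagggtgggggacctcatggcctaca
RGD1562744_predicted, chr3:53330758-53330817, plus strand: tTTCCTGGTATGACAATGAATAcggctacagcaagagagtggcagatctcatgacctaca

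The Gapdh probe of group 2 was not lower at 24 h. Its differences were 0.47, 1.88 and 0.98, those of XM_235346 were 0.51, 2.12 and 1.29, and those of RGD1562744_predicted were 0.41, 2.04 and 1.33. The median of the 21 probes of group 1 was -2.66, -3.08 and -2.13, and that of the 17 eligible probes of group 2 was 0.41, 1.88 and 1.21. All 7 probes of group 4 (3 members) and all 4 of group 5 (3 members) were more than 1 lower at every concentration, with medians of -2.91, -3.37 and -1.87 and of -2.61, -3.04 and -2.31. Group 3 (8 probes, no member, each saturated on some arrays) had medians of 0.12, -0.98 and -0.22. Group 6, which holds the other Gapdh probe, had medians of -0.04, 0.00 and 0.44 over 3 probes, but all 3 were saturated on some arrays. The signs of the medians of groups 1, 2, 4 and 5 were alike under scaling to the array median, quantile normalization, another background correction and the deposited table, while those of groups 3 and 6 were not.

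The 19 members in these groups all fell in groups 1, 4 and 5. Both probes for Gapdh itself lie at the same locus on chromosome 4, that of group 6 being 215 bases before that of group 2 in the direction of the gene. The order of the other groups along the GAPDH message was not analysed here.

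**Figure D1:**
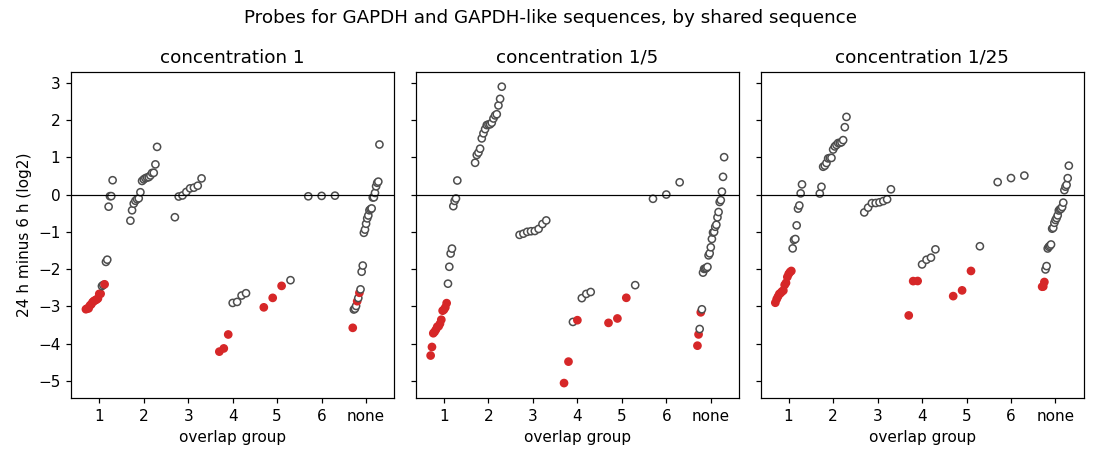
Each point is 1 of the 85 eligible probes for GAPDH or GAPDH-like sequences, plotted by its difference between 24 h and 6 h (log2, vertical axis) and its overlap group (horizontal axis, numbered by size, "none" for the rest), with a panel for each concentration. Filled red points are the 22 members, which lie in groups 1, 4 and 5 or in none, while group 2 lies at -0.70 to 1.28, 0.85 to 2.89 and 0.03 to 2.08.

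The levels behind these differences are given for groups 1 and 2 by array, over all 21 and 17 eligible probes, as a description, since the values that chose the members are among them. The median signal of group 1 was 0.60 and 0.31 on the untreated arrays, and at 6 h it was 0.76, 0.84 and 1.05 at concentration 1, 0.02, -0.29 and 1.11 at 1/5, and 1.41, -2.31 and 0.37 at 1/25. At 24 h it was -0.24, -3.37 and -1.80 at concentration 1, -3.75, -0.72 and -3.87 at 1/5, and -4.05, 0.09 and -3.23 at 1/25. In each 24 h group 1 array lay above the other 2, and 1 array of the 1/25 group at 6 h was low. Group 2 had its highest median, 2.37, on the third array of 1/5 for 24 h, where group 1 was at -3.87. That array had the lowest 75th percentile of all, 3165, and the part of this in the value of group 2 was not tested. The 8 probes of group 1 that are not members had median differences of -1.03, -0.88 and -0.60, and 3 of them were above 0 at 1 or more concentrations.

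**Figure D2:**
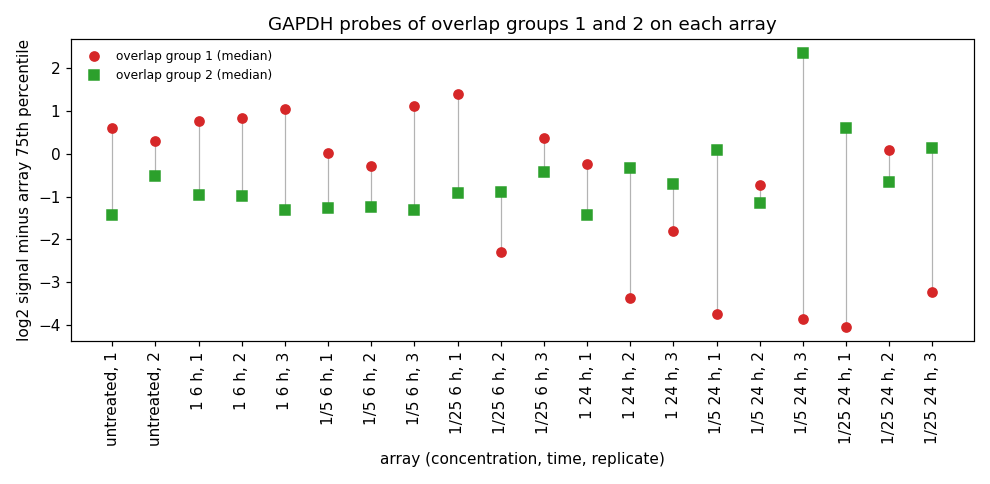
Median log2 signal minus the array's 75th percentile (vertical axis) on each of the 20 arrays (horizontal axis) for the 21 probes of GAPDH overlap group 1 (circles) and the 17 eligible probes of group 2 (squares), joined by a line. Group 1 lies above group 2 on both untreated arrays, on 8 of 9 arrays from 6 h and on 3 of 9 from 24 h.

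The median signal of the 200 members was -0.48 and -0.39 on the untreated arrays, and on the 9 arrays from 6 h it ran from -1.06 to 0.32 except on the second array of 1/25, where it was -3.39. The 24 h arrays had -0.85, -4.79 and -2.82 at concentration 1, -5.34, -1.83 and -5.76 at 1/5, and -6.06, -0.98 and -4.94 at 1/25. The first array of concentration 1 and the second arrays of 1/5 and 1/25 thus stood nearer to the 6 h arrays than the other arrays of their groups did. The members' median difference between 24 h and 6 h was -2.66 at concentration 1, -3.49 at 1/5 and -2.74 at 1/25 (6.32-, 11.2- and 6.66-fold lower), against medians of -0.08, -0.09 and 0.00 over all eligible probes. The SD of these differences, from the variance of the members' median across the 3 arrays of each time, was 1.97, 2.23 and 3.31. These differences chose the members and are a description.

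The arrays with low member signals were in part those with few spots above background. The share of spots well above background was 64.1% on the third array of 1/5 for 24 h, 72.4% on the first of 1/25 for 24 h, 76.5% on the first of 1/5 for 24 h and 75.1% on the second of 1/25 for 6 h, and 81.4 to 88.2% on the others. Of the 200 members 53, 79 and 111 were above background on the first 3 of these arrays, against 159 to 198 on the other arrays from 24 h. Yet the second array of concentration 1 for 24 h, with 82.5% of spots above background, had a member median of -4.79. The 24 h means and differences of many members, also of those named below, thus include values at background. At concentrations 1, 1/5 and 1/25 for 24 h, Tgfb1i1 was above background on 2, 1 and 1 of 3 arrays. For Itga5 the counts were 3, 1 and 2, and for Flt1 3, 1 and 3. The part that array quality has in the members' levels was not tested.

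**Figure D3:**
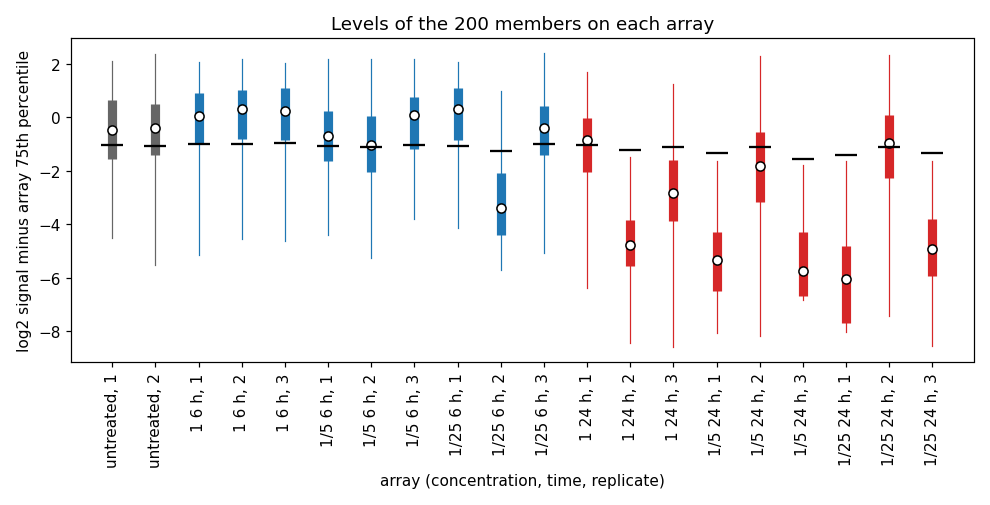
Signals of the 200 members (log2 minus the array's 75th percentile, vertical axis) on each array (horizontal axis): circles are medians, thick bars the middle of the distribution between its quartiles, thin lines the range, and black dashes the median of all eligible probes. Grey is untreated, blue 6 h and red 24 h, and the circles of the red arrays lie at -0.85 to -6.06.

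Arrays of the times were also read on different slides and days. No slide or scan day held both 6 h and 24 h arrays of concentration 1 or of 1/5, so time and scan day cannot be told apart there. One scan day held all 3 arrays of 1/25 for 6 h, with member medians of 0.32, -3.39 and -0.40, and 1 of 1/25 for 24 h, with -6.06. The only slide with both times held the third array of 1/25 for 6 h and the 3 arrays of concentration 1 for 24 h, and the median difference between these was -2.31.

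At concentration 1 all 24 h arrays lay below all 6 h arrays for 179 members, at 1/5 for 154 and at 1/25 for 18, against 21.4%, 12.7% and 5.33% of all eligible probes. Over the concentrations together, 6 members had all 9 arrays from 24 h below all 9 from 6 h, as did 0.293% of eligible probes. In limma's fit over all probes 67 (0.191%) were called lower at 24 h at concentration 1, 27 (0.077%) at 1/5 and 0 (0%) at 1/25, where 2543 had an unadjusted p under 0.05. Of the members 2, 3 and 0 were among them. The rule used this contrast, so nothing is read from these counts. The median SE of a member's difference was 1.28, against 0.503 over all probes.

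Among the adhesion genes, Itga5, the fibronectin-binding integrin alpha 5 subunit, had signals of 0.09 and 0.03 on the untreated arrays. At 6 h it had 0.46, 0.26 and 0.26 at concentration 1, -0.70, -0.85 and 0.14 at 1/5, and 0.26, -3.73 and -0.62 at 1/25. The 24 h arrays had -1.33, -4.33 and -4.40, then -5.83, -2.49 and -6.58, then -5.67, -2.31 and -6.03. All 9 arrays from 24 h lay below 8 of the 9 from 6 h, and the second array of 1/25 for 6 h lay among them. The differences were -3.68, -4.50 and -3.31 (SE 1.17). Tgfb1i1, a LIM-domain protein of focal adhesions, had -3.92, -4.30 and -4.13 (SE 1.75). The 17 members placed in adhesion and cytoskeleton, a grouping made after the members were known, had medians of -2.73 at concentration 1 and -3.50 at 1/5.

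In protein folding and turnover, the members of which were placed together after they were known, 8 members had medians of -3.09, -4.06 and -2.97. The mitochondrial chaperone Hspa9 had -2.97, -4.33 and -2.52 (SE 1.74). Klhdc3, a substrate receptor of a ubiquitin ligase, had -3.40, -3.46 and -3.04 (SE 1.03), and 8 of its 9 arrays from 24 h lay below all from 6 h. Atg13, which starts autophagy, had -3.06, -3.23 and -3.04 (SE 1.53).

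Hspa8, the constitutive cytosolic chaperone of the 70-kDa heat shock family, was the 1 member of the list of heat shock genes. Its probe had -0.25 and -0.43 on the untreated arrays. At 6 h it had -0.30, -0.18 and 0.26, then -1.56, -2.73 and -0.25, then 0.70, -2.31 and -0.97. At 24 h it had -1.76, -6.87 and -1.23, then -7.68, -1.52 and -3.93, then -7.79, -0.61 and -6.42. Each concentration had 1 or 2 arrays from 24 h within the range of the 9 arrays from 6 h, and 5 of 9 lay below all of them. Over the 24 eligible probes of 12 heat shock genes the median differences were -0.14, -0.41 and -0.05, and 3 probes (12.5%) were more than 1 lower at every concentration, against 5.56% of eligible probes.

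Among signalling genes, Akt2, a kinase of insulin signalling, had -2.11 and -1.64 untreated. At 6 h it had -0.42, 0.02 and -0.29, then -1.92, -3.02 and -0.53, then -0.83, -5.41 and -2.90. At 24 h it had -2.31, -7.94 and -8.32, then -7.86, -8.18 and -6.73, then -7.86, -4.51 and -7.65. No array of 1/5 at 24 h was well above background. With the lowest signal above background on each array taken as the limit, the signal there was at least 12.9-fold lower than at 6 h. The limit of a single spot may differ from it. At concentrations 1 and 1/25 only 1 of 3 arrays from 24 h was well above background, and the measured differences there, -5.96 and -3.62 (SE 1.35), include values at background. Camk2b, the beta subunit of a calcium/calmodulin-dependent kinase, had -1.49 and -1.99 untreated, -1.33, -0.75 and -0.38, then -2.00, -2.07 and -1.33, then -1.58, -2.44 and -1.12 at 6 h, and -3.29, -4.72 and -3.92, then -5.23, -2.89 and -6.76, then -7.94, -2.72 and -4.26 at 24 h. In Camk2b the 9 arrays from 24 h lay below the 9 from 6 h. Prickle1, of planar cell polarity, had -3.44, -3.16 and -3.80 (SE 0.97), and Adgrl2, an adhesion receptor coupled to G proteins, had -3.83, -5.02 and -3.76 (SE 2.03). Cdkn1b, the cell cycle inhibitor p27, had -3.23, -4.04 and -2.91 (SE 1.56).

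In the secretory route Glg1, a glycoprotein of the Golgi, had -3.24, -5.61 and -3.81 (SE 1.62). Lman2l, a lectin of the early secretory pathway, had -3.23, -4.33 and -2.97 (SE 1.24). At 1/5 it was not well above background on any 24 h array, and by the limit used for Akt2 it was at least 7.57-fold lower than at 6 h. The 14 members of this route had medians of -2.75, -3.44 and -2.75. In translation Rplp0, a protein of the large ribosomal subunit, had -2.98, -3.69 and -4.22 (SE 1.88), and Eif4g2, a translation initiation factor, had -2.79, -4.10 and -3.97 (SE 1.65). Itm2c and Tmem120a, membrane proteins, had -3.82, -5.24 and -4.52 (SE 2.22) and -3.65, -4.26 and -3.17 (SE 1.72), and Vat1 had -4.10, -5.10 and -3.10 (SE 1.46). The lowest of all members, TC536242, had -5.41, -6.30 and -4.98 (SE 1.96), followed by AI059216 with -4.79, -6.30 and -5.47 (SE 2.46). Hspa9, Cdkn1b, Eif4g2, TC536242, AI059216 and the GAPDH probes lie outside the naming rule and were chosen after their values were seen.

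Flt1, a receptor for vascular endothelial growth factor that marks endothelium, had the smallest spread of the members named by the rule. It had -1.88 and -1.99 untreated, -2.01, -1.65 and -1.30, then -2.71, -2.94 and -2.65, then -1.24, -2.09 and -1.96 at 6 h, and -4.11, -4.55 and -4.01, then -6.13, -4.44 and -5.02, then -4.86, -3.14 and -4.59 at 24 h. The 9 arrays from 24 h lay below the 9 from 6 h, with differences of -2.57, -2.43 and -2.44 (SE 0.46).

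Flt1 was the only member among the markers of cell types. Of the 5 endothelial markers 1 was above background on every array, and their summed linear level, relative to the array's 75th percentile, was 0.383 and 0.476 in untreated cultures, 0.252 to 0.614 at 6 h and 0.165 to 0.334 at 24 h. Their part in the value of Flt1 was not tested. In bulk RNA fewer cells of a type and less RNA per cell cannot be told apart. The members are few among the eligible probes, so that a list of 10 to 31 probes without a member is no result. More than 1 lower at every concentration were 4 of 30 probes of sarcomere genes (13.3%), 3 of 18 of fatty acid oxidation (16.7%), 4 of 23 of glycolysis and hypoxia (17.4%), 4 of 18 of NRF2 targets (22.2%), 1 of 31 of the cell cycle (3.23%) and none of 10 of the prostanoid genes, against 5.56% of eligible probes. The share was 9.52 to 12.5% for calcium handling and channels, ER stress, apoptosis and p53, matrix, cholesterol and drug metabolism. It was 6.25% for oxidative phosphorylation and 0 for cytokine, interferon, immediate early and circadian genes. Fatty acid oxidation had median differences of -0.08, -0.28 and -0.06, glycolysis and hypoxia -0.07, -0.14 and -0.01, and NRF2 targets -0.09, -0.50 and -0.72. No list was tested as a set. The 302 eligible probes for olfactory receptors held 2 members, Or5t16 and Or1e25, and 17 of the 302 (5.63%) were more than 1 lower at every concentration.

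**Figure D4:**
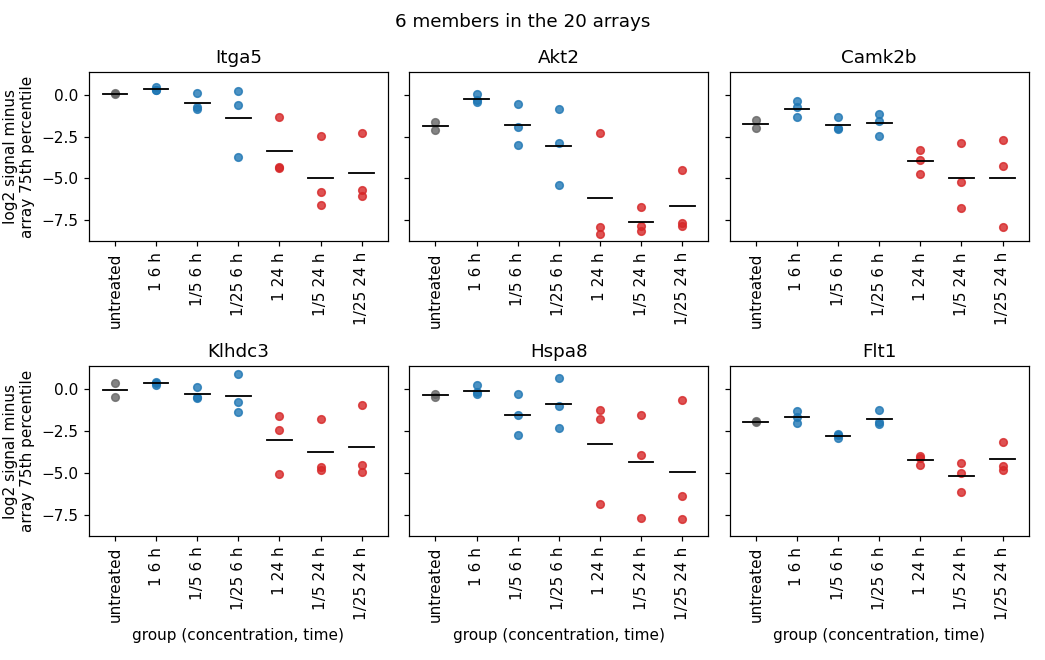
Log2 signal minus the array's 75th percentile (vertical axis) of 6 members in the 7 groups (horizontal axis), with a point for each array and a line at each group's mean. Grey is untreated, blue 6 h and red 24 h. In Camk2b and Flt1 all red points lie below all blue ones, and in Hspa8 5 of the 9 red points lie below all blue ones.

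Differences among the concentrations at 1 time were tested with limma over 35055 probes, with Benjamini-Hochberg adjustment. The rule did not rank them, but it used the same arrays and asked for a low value at every concentration alike. It also kept probes with a wide spread (median SE of 24 h minus 6 h 1.28, against 0.503 over all probes). The members' counts in these tests are thus not free of the selection and are a description. Among the concentrations at 6 h, 7 probes (0.02%) passed the threshold of 0.05 and no member did (adjusted p = 1.00 for each, 4 members with an unadjusted p under 0.05, or 2.0%, against 3.71% of all probes). Among the concentrations at 24 h, 2 probes (0.00571%) passed and no member did. The smallest adjusted p of a member was 0.316, and 5 members (2.5%) had an unadjusted p under 0.05, against 13.7% of all probes. The members' median at 6 h was 0.64 for concentration 1 minus 1/5, 0.52 for 1/5 minus 1/25 and 1.12 for 1 minus 1/25 (above 0 in 198 of 200). Over all probes these medians were 0.04, 0.10 and 0.12. Without the second array of 1/25, chosen after seeing the data, the members' median of 1 minus 1/25 was 0.16 (above 0 in 141). At 24 h the members' medians were 1.37, -0.18 (above 0 in 73) and 1.17 (above 0 in 196), with a median SE of 1.28 for each. Over all probes the 24 h medians were 0.03, 0.16 and 0.10. Members rose and fell together over the arrays, so these counts are not of independent members, and no trend is read from them.

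The mean of the 6 treated groups minus untreated had a median of -1.68 over the members (median SE 1.17), against -0.08 over all probes. The 24 h values that chose the members are part of this mean, so it is a description of them and no support. No probe of the 35055 passed the threshold in limma (0%), with 784 at an unadjusted p under 0.05, and no member did, with 12 at such a p. The members with the smallest p were Flt1 (-1.37, SE 0.42), BE126741 (-1.81, SE 0.50) and TC556987 (-1.64, SE 0.51), each with a limma adjusted p of 0.951. The median of untreated minus 6 h was 0.14 and that of 24 h minus untreated -3.15, given with no test because the rule used both times.

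For the concentrations at 24 h the smallest p belonged to BM391921, Il1r1 and AW507352, each with a limma adjusted p of 0.316. Il1r1, the receptor for interleukin-1, had -2.19, -4.52 and -3.91 at concentration 1, -5.51, -4.87 and -5.75 at 1/5, and -6.33, -5.17 and -4.92 at 1/25. For AW507352 a spot flagged by the scanner software on the second array of 1/5 was left out, which leaves 2 arrays in that group. At 6 h the smallest p belonged to BE126741, Cherp and BF544435. Cherp, a nuclear protein of RNA splicing, had -1.47, -1.56 and -0.94 at concentration 1, -0.96, -2.68 and -3.21 at 1/5, and -3.80, -4.15 and -4.17 at 1/25.

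The array has 65 other probes for the members' genes, and 56 of them, for 41 genes, were above background on all 6 h arrays. Their median differences were -0.34, -0.27 and -0.27 (0.02, 0.20 and 0.07 when arrays were scaled to their median, which put the median of all eligible probes at 0.28, 0.39 and 0.35 in place of -0.08, -0.09 and 0.00). Of the 56, 7 (12.5%) were more than 1 lower at every concentration, against 5.56% of eligible probes, and 29 were above 0 at 1 or more concentrations. A saturated probe cannot show its full change, and 22 were saturated on some array, 5 of them on all. Over the 34 that were never saturated the medians were -0.63, -0.86 and -0.61, with 6 more than 1 lower at every concentration and 10 above 0 at some concentration.

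In 53 pairs both probes had a position on a chromosome, and the strand was read from the order of the coordinates. The other probe lay downstream of the member in 35 pairs, by 71 to 84473 bases, with medians of -0.10, -0.09 and 0.29, and upstream in 18 pairs, with medians of -0.54, -0.73 and -0.47. Of the downstream probes 17 were saturated on some array, and of the upstream probes 4. Over those never saturated the medians were -0.58, -0.97 and -0.71 for 18 downstream and -0.94, -0.77 and -0.52 for 14 upstream. More than 1 lower at every concentration were 2 of the 35 downstream and 5 of the 18 upstream probes. Among those never saturated it was 1 of 18 downstream and 5 of 14 upstream. An order along the genes was not tested. Hspa8 and Eif4g2 show how far probes of 1 gene can differ. The 4 probes of Hspa8 are in the order of the gene, and 2 of them are shown because they lie close together.
Hspa8, member, chr8:43794042-43794217, plus strand: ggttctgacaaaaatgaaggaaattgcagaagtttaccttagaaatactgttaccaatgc
Hspa8, 543 bases downstream, chr8:43794585-43794656, plus strand: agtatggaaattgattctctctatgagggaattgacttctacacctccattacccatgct
The member had -3.21, -2.86 and -4.08, the probe 543 bases downstream -0.68, -3.67 and -2.87, that at 1537 bases -0.13, -0.91 and 0.79, and that at 1938 bases -0.14, 0.13 and 0.67, the last saturated on 5 arrays. Among 15 probes whose description names Hspa8 or a copy of it, the highest difference of the 3 ran from -2.86 to 1.35, and the copy behind each signal cannot be told apart. For Eif4g2 the probe 71 bases downstream of the member had -1.73, -3.09 and -3.42, and that 2726 bases downstream had 0.00, 0.17 and 0.40 but was saturated on 13 arrays.

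Itga5 has a probe upstream of the member that was not lower at 24 h.
Itga5, member, chr7:142336781-142338757, minus strand: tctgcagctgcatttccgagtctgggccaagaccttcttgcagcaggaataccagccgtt
Itga5, other probe at -6200 bases (minus is upstream), chr7:142344730-142344957, minus strand: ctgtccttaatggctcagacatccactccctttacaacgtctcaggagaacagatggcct
The upstream probe had -0.10, 0.74 and 0.80, against -3.68, -4.50 and -3.31 for the member, and a probe 4045 bases downstream had 0.00, -1.03 and 0.08. Neither was saturated. Flt1, by contrast, had a second probe at -110928 bases with -2.64, -1.46 and -2.00. Which exon or transcript form each probe reads was not analysed here.

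**Figure D5:**
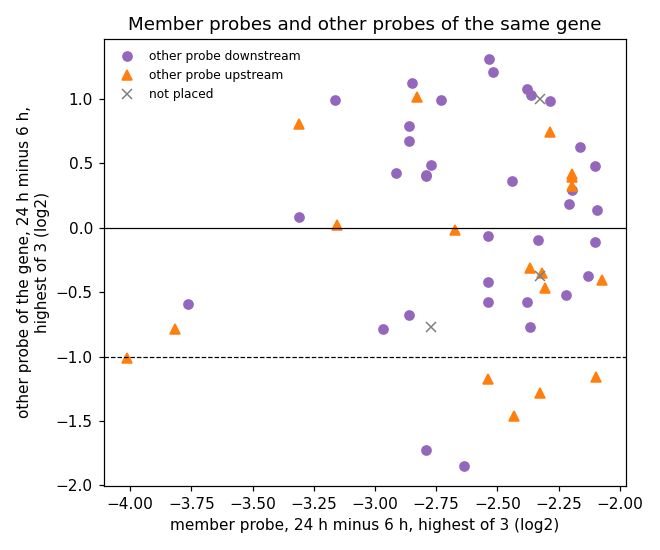
Each point is 1 of 56 other probes of the members' genes, plotted by the highest of its 3 differences between 24 h and 6 h (log2, vertical axis) against that of the member (horizontal axis), with circles for probes downstream, triangles upstream and crosses not placed. Of the 56, 7 lie below the dashed line at -1 and 29 above 0, where 22 probes saturated on some array are included.

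The members' own probe sequences differed a little from the rest. Of the 196 members with a position, 50 (25.5%) span more of the genome than the probe's 60 bases, against 15.9% of eligible probes. A probe across a splice junction does so, but some members, such as Itm2c and Man2a1, span only 61 bases. The share is thus not that of junction probes. The members held 13.8 C and 16.8 A per probe on average, against 12.5 and 17.7. A run of CCCC was in 14% of members and 8.23% of eligible probes, and a run of AAAA in 20.5% and 30.3%, on the strand of the probe. Of the members 21 overlap another member in sequence, and so are not independent of each other. Without the 22 GAPDH probes the members' medians were -2.59, -3.49 and -2.80.

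Across the 20 arrays members followed the mean of all members with a Pearson r that was 0.959 at the median and 0.490 at the lowest, and 174 members were over 0.9. This is a description over arrays that share slides and signal levels, and members enter their own mean. Over 0.9 were 1604 of the eligible probes (5.41%). The non-members with symbols that were most like the mean were Tnfrsf12a (r = 0.988), Nolc1 (0.985), Kdelr1 (0.980), Pbx3 (0.979) and Vom2r40 (0.978). Tnfrsf12a, a receptor of the tumour necrosis factor family, had differences of -1.85, -2.24 and -1.87.

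Spike-in control probes on the same arrays also differed between the times. Of the 10, each with 32 spots an array, 4 were lower at 24 h at every concentration and 4 higher. E1A_r60_3 had -2.33, -0.34 and -1.15 and E1A_r60_a20 had -1.12, -0.17 and -0.80, while E1A_r60_a107 had 1.11, 2.42 and 1.29. None was more than 1 lower at every concentration. Whether spike-in RNA was added is not stated in the labels, and the part of these shifts in the members' values was not tested.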

How the data were processed

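Per the labels, Trizol-extracted RNA was amplified and Cy3-labelled with an Agilent kit for small RNA inputs, 1 sample to each of 20 1-colour arrays. Per the file headers, Agilent Feature Extraction 9.5.3.1 gave the intensity values, background-subtracted and detrended, not scaled between arrays. The deposited series table holds a ratio: checked against the intensities, it is the processed signal over the array median and over the mean of the untreated arrays (median absolute log2 difference 0.00146), and it was used as an alternative. Here intensities were put on the log2 scale relative to the 75th percentile of all spots other than controls on their array. Spots flagged as outliers or non-uniform (120 to 271 of 43379 an array) were left out of the tests and of the named values, with all 200 members kept when the rule was applied without them. Replicate spots were averaged and saturated spots kept.

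limma 3.58.1 in R 4.3.3 was fitted to 35055 probes above background on every array of 1 or more groups, with 7 group means over all 20 arrays, and Benjamini-Hochberg adjustment over all probes. The script was tested on simulated data in which the spread was capped below that of many members. That run gives no measure of the power of the members' tests. The number of arrays limits the precision. Alternatives were another scaling or background correction, other filters, flags kept, each array left out, array weights, slide as a random block and the replicate number as a block. Among 57 array pairs with the same replicate number, 12 correlated over 0.1 in their deviations from the group means (median r -0.03). Of the 20 arrays 6 matched best with an array of their own number. These values do not settle whether the numbers pair the arrays.

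Python 3.11.15, pandas 2.3.3, numpy 2.4.6 and matplotlib 3.10.9 were used. Symbols were updated through RefSeq's gene table by accession for 10861 probes, symbol for 5542 and synonym for 3704, and 20905 kept the name in the files. The named genes are the 15 lowest-ranked members with a symbol, members in a fixed list, the 3 with the smallest p of each test, those at the rank limit and the 5 most similar non-members. The members and lists were chosen with earlier results of these data known. A few genes that the selection or naming rules cover are not reported here.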

Additional observations from a re-analysis of the deposited data

Results flagged for a closer look

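Control spots outside the main measurement stood apart from the untreated arrays. E1A_r60_a107 was 1.79 higher (log2) at 24 h than in untreated cultures, with all 9 arrays from 24 h above both untreated arrays. E1A_r60_a22 was 0.57 higher by the same count, 0.5654 before rounding. The third array of 1/25 for 6 h also lay above both untreated arrays. It had -0.05 for E1A_r60_a107 (untreated -1.43 and -1.08) and -0.19 for E1A_r60_a22 (untreated -0.56 and -0.60). On its slide the 3 arrays of concentration 1 for 24 h had -0.01, 0.24 and -0.21 for E1A_r60_a107. The highest value of E1A_r60_a107, 3.25, was on the array with the lowest 75th percentile. The untreated arrays' slide held no 24 h array. The part of the slides was not tested, and no test was made of either probe. Chance flags about 1 in 20 groups of arrays in the check for single outlying arrays, which applies to groups of 4 or more and so to none here.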

How the results depend on the processing

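The members' medians of 24 h minus 6 h kept their sign under every alternative run. The rule chose the members by these differences, so the kept sign is a description and no support. Leaving out single arrays gave -3.51 to -1.81 at concentration 1, -4.68 to -2.86 at 1/5 and -4.13 to -1.78 at 1/25, the last without the second and the first array of 1/25 for 24 h. The filter on dim probes gives no separate value for them, since membership did not use it. Applied again, the rule kept 171 members under quantile normalization, 157 under normexp, and 100 without the second array of 1/25 for 6 h, 118 without the first of 1/25 for 24 h and 124 without the second of concentration 1 for 24 h (100 to 196 over all arrays left out). The other probes' medians were above 0 under the array median (0.020, 0.20 and 0.074), with the deposited table (0.023, 0.21 and 0.077) and, at 1/25, over those above background on all 20 arrays (0.14), and -0.36 to -0.25, -0.40 to -0.20 and -0.37 to -0.03 without single arrays; the cause was not tested beyond the shift of all probes given with them.

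Counts of probes called for the concentrations at 6 h (7) were 1 under the array median, 2 under quantile normalization, 3 under normexp, 0 above background on all arrays, 19 with slide as a random block, 3526 with array weights, 1 with the deposited table and 1 to 24 without single arrays. Those at 24 h (2) were 0 under the array median, under normexp, above background on all arrays, with the deposited table and, added after seeing the data, on the 24 h arrays alone with scan day as a block. They were 4 without a filter. With slide as a random block they were 4629 of 35055 probes (5 of the 200 members), and with array weights 10179 of 35055 (94 of the 200). Without single arrays they were 0 to 3995, the last without the second array of 1/5 for 24 h. For treated minus untreated (0) array weights gave 259 and single arrays left out 0 to 3. Array weights called 6 of the 200 members at 6 h, beside 3526 of 35055 probes, and 6 of the 200 against untreated, beside 259 of 35055. These counts of members are a description. No member was called with any single array left out. With the replicate block 3 probes were called at 6 h, 2 at 24 h and 0 against untreated, and no member. Whether the numbers pair the arrays is not known. The slide correlation was estimated at -0.16. The causes were not tested. Signal over background limits most the 6 members that were not above background on any array of a 24 h group. The 24 h means of many other members also include values at background, since 53 to 198 of the 200 were above it on single 24 h arrays.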
